A study of Mus musculus with 6 samples.

Results

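The Clec genes name the larger part of the C-type lectin receptors of myeloid cells, and the family was taken here as the protein-coding genes whose mouse GENCODE M21 symbol is Clec followed by a digit. Of 54232 gene identifiers in the files, 54165 matched that annotation, and 30 genes met the rule. Their transcripts were measured by bulk RNA sequencing of monocytes sorted from the central nervous system (CNS) of mice with experimental autoimmune encephalomyelitis (EAE, a T cell-driven model of multiple sclerosis). The mice were mixed bone marrow chimeras: irradiated GFP+ recipients carried equal parts of WT (CD45.1) and Ifnar1-/- (CD45.2) marrow, were immunized with MOG35-55 in complete Freund's adjuvant, and received rIFN-β daily at 30000 IU. Monocytes were gated as GFP- CD45+ CD11b+ Ly6Chi Ly6G- cells at disease peak, giving 3 WT and 3 Ifnar1-/- libraries. IFNAR1 is a chain of the receptor for type I interferons, so WT against Ifnar1-/- compares cells that could and could not receive rIFN-β or endogenous interferon signals in the same inflamed tissue. The 2 groups share the recipients' irradiation, the immunization, the pertussis toxin that the methods give with it, and the rIFN-β. No library without rIFN-β was in the comparison. The gate removed GFP+ host cells, and how far marrow replacement went is not given in the sources used here. The methods give 3 recipient mice, each carrying both marrows, but not which library came from which mouse, so p-values measure the spread between these libraries.

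C-type lectin receptors carry a folded domain that in many members binds sugars, often with the help of calcium, and in others binds proteins. Dectin-2, Mincle and MCL on myeloid cells couple to an adaptor with an activating motif (ITAM), recruit the kinase Syk and signal through Card9, Bcl10 and Malt1 to NF-κB. Other members carry an inhibitory motif (ITIM) that recruits phosphatases. Several members of the Clec2 group are ligands rather than sensors, recognised by lectin-like receptors of natural killer (NK) cells.

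Libraries held between 4531782 and 7321380 expected counts, and 3 counts, taken as the floor of detection, corresponded to 0.410 to 0.662 CPM (the count scaled to the library total). This floor covers counting error only. WT library 1 stood apart in length-scaled abundance (TPM), with 384354 TPM in the 7SL and 7SK RNA genes Rn7s1, Rn7s2 and Rn7sk against 142488 to 194208 in the other 5 libraries. TPM was therefore used to order genes within libraries, and groups were compared on CPM normalized by TMM. Monocyte markers were abundant, with a summed level of 7776 to 9557 CPM in WT and 8237 to 9492 CPM in Ifnar1-/- libraries, and of the 7 markers Ly6c2 was called higher in WT (log2 fold change 1.40) and none lower. Of the other 6 markers, Ccr2 was lower in every WT library (log2 fold change -0.62, adjusted p 0.143, DESeq2 adjusted p 0.0458). Fcgr1 was higher in every WT library (log2 fold change 0.71, adjusted p 0.0839, DESeq2 adjusted p 0.0106). Neither was called in the edgeR fit used below. Microglia markers summed to 49.6 to 78.2 CPM in WT and 54.9 to 79.6 CPM in Ifnar1-/- libraries. The targeted gene Ifnar1 had 152, 125 and 111 CPM in WT and 110, 101 and 109 CPM in Ifnar1-/- libraries, with a log2 fold change (WT over Ifnar1-/-, as everywhere below) of 0.28 and an adjusted p of 0.360. Counts over the whole gene do not resolve the part that the allele alters, so they did not check the genotype, and the groups are named as labelled.

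Of the 30 members, 17 were detected, with more than 3 counts in every library of at least 1 group. A further 11 stayed at or below 3 counts in every library, and Clec4b1 and Clec4b2 passed the floor in single libraries only. The undetected members were Clec3a, Clec3b, Clec12b, Clec2h, Clec4f and Clec4g, which had no count in any library, and Clec14a, Clec18a, Clec2e, Clec2l and Clec4a4, which had 3 counts or fewer. Clec3b encodes the plasma protein tetranectin, Clec4f is a marker of Kupffer cells, Clec4g is a lectin of liver sinusoidal endothelium and Clec14a is endothelial. A count of 0 still allows a level up to the floor given above.

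The detected members spanned more than 2 orders of magnitude in level per transcript length. Clec5a (MDL-1) averaged 184 TPM over the 6 libraries and Clec4e (Mincle) 171 TPM, above 96.4% and 96.1% of the 10639 detected protein-coding genes. Clec4d (MCL) followed at 105 TPM, Clec4n (Dectin-2) at 96.8 TPM and Clec12a (MICL) at 72.4 TPM. These 5 genes held between 83.4% and 86.3% of the summed TPM of all members in each library. Clec4a2 (DCIR) averaged 35.0 TPM, Clec4a3 23.0 TPM, Clec4a1 22.8 TPM, Clec2d 11.8 TPM and Clec16a 8.92 TPM. The remaining detected members lay between 0.307 TPM (Clec11a) and 4.14 TPM (Clec10a).

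The order of the levels was firm at some steps and not at others. Clec4e exceeded Clec4d in 6 of 6 libraries, and so did Clec12a over Clec4a2, Clec4a2 over Clec4a3, Clec4a1 over Clec2d, Clec16a over Clec10a and Clec9a over Clec2i. Clec5a exceeded Clec4e in only 2 of 6 libraries, so their ranks could not be separated. Clec4a3 against Clec4a1, Clec2d against Clec16a, and Clec1b against Clec9a each kept their order in 3 of 6 libraries. The steps from Clec4d to Clec4n, from Clec4n to Clec12a and from Clec10a to Clec1b held in 5 of 6, and those from Clec2i through Clec2g and Clec1a to Clec11a in 4 of 6 each.

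The most abundant gene with a Clec symbol was outside the rule. Clec7a (Dectin-1, the β-glucan receptor) is annotated in GENCODE M21 as a polymorphic pseudogene, not as protein-coding. It averaged 878 TPM, above 99.4% of detected protein-coding genes, and exceeded every member in all 6 libraries. Its TPM was 0.991 to 1.29 times the sum over the 30 members. The other 2 Clec genes outside the rule were pseudogenes as well: Clec2f had at most 4 counts in a library and Clec2j none.

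**Figure D1:**
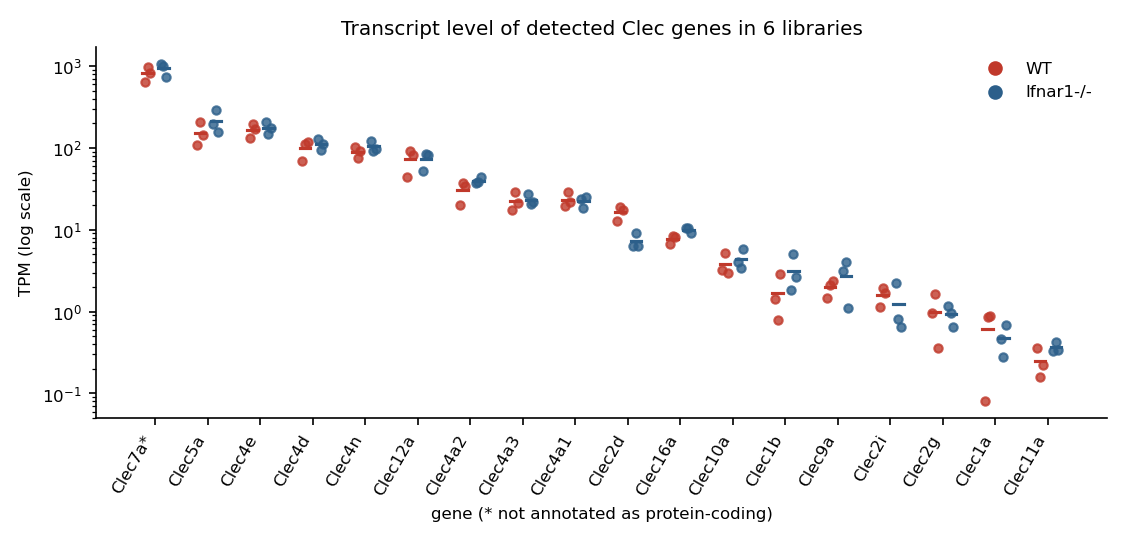
TPM (log scale) of the 17 detected members and of Clec7a, ordered by their mean over 6 libraries. Points are libraries, red for WT and blue for Ifnar1-/-, and short bars are group means (n = 3). Levels ran from 878 TPM for Clec7a to 0.307 TPM for Clec11a, and Clec2d was the member in the upper part of the range whose WT points stood clear above its Ifnar1-/- points.

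Position on the chromosome was largely shared. Of the 30 members, 22 lie on chromosome 6, 3 on chromosome 8 and 1 each on chromosomes 7, 9, 11, 12 and 16. On the GRCm38 build, 9 Clec4 genes occupy 368 kb of chromosome 6 (from 122921848 at Clec4a1 to 123289870 at Clec4e). Within this cluster the mean level ranged from 0.0367 TPM for Clec4a4 to 171 TPM for Clec4e, and 6 of the 9 genes were detected. The 3 genes at the distal end, Clec4n, Clec4d and Clec4e, were the highest, and the undetected Clec4a4 and the nearly undetected Clec4b1 lay between the expressed Clec4a3 and Clec4a2. A second stretch of 790 kb in the NK gene complex (129452000 at its end in Clec1a, 128662385 at its start in Clec2h) holds 10 members, 7 of them detected. There the level ran from 0 TPM for Clec12b and Clec2h to 72.4 TPM for Clec12a, whose neighbour is Clec12b. Neighbouring lectin genes of one cluster therefore included both abundant and undetected transcripts in these monocytes.

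**Figure D2:**
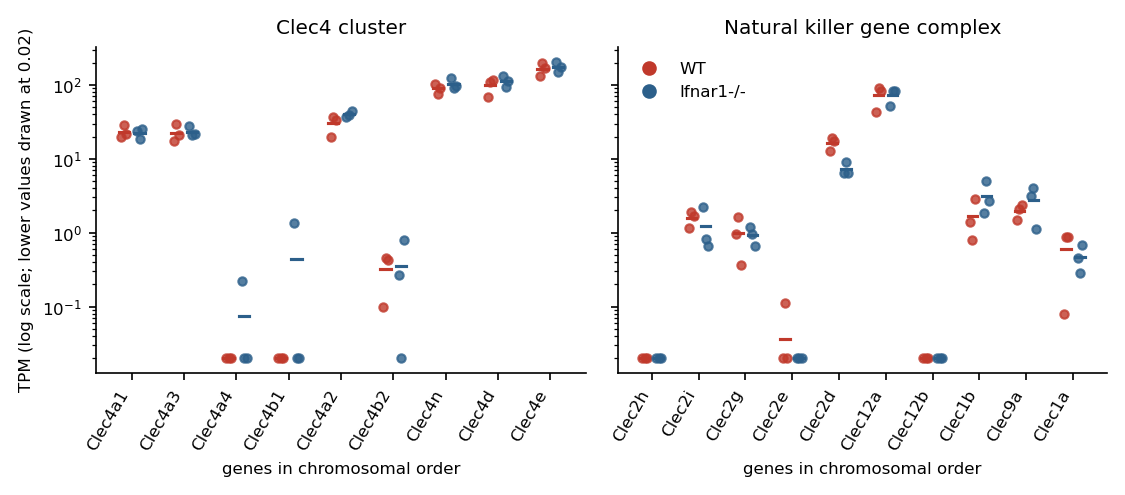
TPM (log scale, lower values drawn at 0.02) of members in chromosomal order in the Clec4 cluster (left) and in the NK gene complex (right). Points are libraries and bars are group means (n = 3, red WT, blue Ifnar1-/-). In the Clec4 cluster the 3 genes on the right, Clec4n to Clec4e, were highest, and in the NK gene complex Clec12a and Clec2d were.

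Genotype was then compared in an edgeR quasi-likelihood fit over all 11254 genes that passed the filter on low counts. A call required that the adjusted p not exceed 0.05 and that the change reach 1.5-fold. Of the 17 detected members 15 passed this filter, and Clec2g and Clec11a did not. Of the 15 members tested, 1 was called, Clec2d, and it was higher in WT; no member was called lower in WT. Over all tested genes 2.13% were called, 1.67% higher and 0.462% lower in WT. The median log2 fold change of the 15 tested members was -0.06 beside -0.01 over all tested genes, with 4 members above and 11 below 0. At an unadjusted p under 0.05, 3 of the 15 members passed (1 higher, 2 lower in WT), beside 17.8% of all tested genes. DESeq2 and limma-voom likewise called 1 member, Clec2d, higher in WT. DESeq2 called 4.17% of all tested genes (3.15% higher and 1.02% lower in WT) and limma-voom 1.96% (1.58% higher and 0.382% lower).

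Clec2d encodes Clr-b, a ligand that the inhibitory NK receptor NKR-P1B (the product of Klrb1b) recognises. Clec2d reached 18.2, 18.6 and 16.9 CPM in the WT libraries and 7.61, 9.29 and 7.51 CPM in the Ifnar1-/- libraries. Every WT library lay well above every Ifnar1-/- library, and the spread within each group was near 1 CPM (SD 0.891 in WT and 0.999 in Ifnar1-/-, n = 3). Clec2d was 2.20-fold higher in WT (95% interval 1.65 to 2.93), a log2 fold change of 1.14 (SE 0.19), at an adjusted p of 0.0101 in the edgeR quasi-likelihood test. It rested on modest counts, 128, 88 and 86 in WT and 50, 55 and 41 in Ifnar1-/- libraries. The call was lost without Ifnar1-/- replicate 1 (adjusted p 0.0600) and without Ifnar1-/- replicate 3 (adjusted p 0.0602), with log2 fold changes of 1.10 in both cases. Over all 21 alternative settings, the log2 fold change stayed between 1.06 and 1.33 and the adjusted p between 0.000321 and 0.292. The call held in 15 of the 21, and the other 4 losses were on the deposited TPM. The exact permutation test of 3 against 3 libraries gave 0.1 (two-sided), the smallest p it allows.

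The transcript for NKR-P1B itself, Klrb1b, had a log2 fold change of -0.54 and was not called (adjusted p 0.449). No part of the annotated Clec2d exons shared an exact 75-base stretch with another gene. Shorter matches and matches with mismatches were not searched, so reads split with a relative were not tested for. T and NK cell markers, a list made up mostly of T cell genes, moved in the same direction as Clec2d. The 9 markers summed to 62.7, 27.1 and 57.2 CPM in WT and 23.6, 12.5 and 14.1 CPM in Ifnar1-/- libraries, so every WT library was the higher. All 7 of the tested markers had positive log2 fold changes, and 1 of the 7 (Il2rb, edgeR adjusted p 0.0478) was called. Of the 9, 5 lay higher in every WT library (11.1% of all tested genes did). Ncr1, a marker of NK cells, was at the floor, so the sum speaks mainly for T cell genes. The part of these markers in the Clec2d difference was not tested. In bulk samples, fewer cells of a type and less RNA per cell cannot be told apart.

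Promoters were read for the 24 of 30 members that the RefSeq table (GRCm38.p6, 250 bases before to 50 after the gene start) holds. They were searched on both strands for the core of the interferon-stimulated response element (ISRE), GAAA followed by any 2 bases and GAAA. An ISRE core was present in 3 members, Clec2d, Clec4d and Clec4b1, beside 3.44% of all 32851 promoters. The GAS motif, TTC followed by any 3 bases and GAA, was searched in the same way. It was present in 1 member, Clec4a2, 42 bases before the start, beside 8.30% of all promoters. The Clec2d promoter (chr6:129180365-129180664, + strand) and the Clec4d promoter (chr6:123261857-123262156, + strand) are shown because both hold the core, and of their genes Clec2d was called and Clec4d was not. Capitals mark the match, which in Clec4d lies on the opposite strand.
Clec2d: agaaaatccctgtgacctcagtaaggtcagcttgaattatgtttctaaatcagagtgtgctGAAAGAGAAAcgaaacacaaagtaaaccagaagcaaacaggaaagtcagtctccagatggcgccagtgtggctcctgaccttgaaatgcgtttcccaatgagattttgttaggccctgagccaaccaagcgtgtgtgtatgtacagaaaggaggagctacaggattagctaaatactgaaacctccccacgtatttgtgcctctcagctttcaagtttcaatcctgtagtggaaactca
Clec4d: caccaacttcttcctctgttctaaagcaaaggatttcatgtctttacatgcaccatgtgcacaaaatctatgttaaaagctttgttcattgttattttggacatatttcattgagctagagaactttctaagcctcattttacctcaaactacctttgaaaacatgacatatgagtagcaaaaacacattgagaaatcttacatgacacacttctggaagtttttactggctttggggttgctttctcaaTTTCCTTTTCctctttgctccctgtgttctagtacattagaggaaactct
The match began 189 bases before the start of Clec2d and at the start of Clec4d. A match is a run of letters and not a measured binding site.

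**Figure D3:**
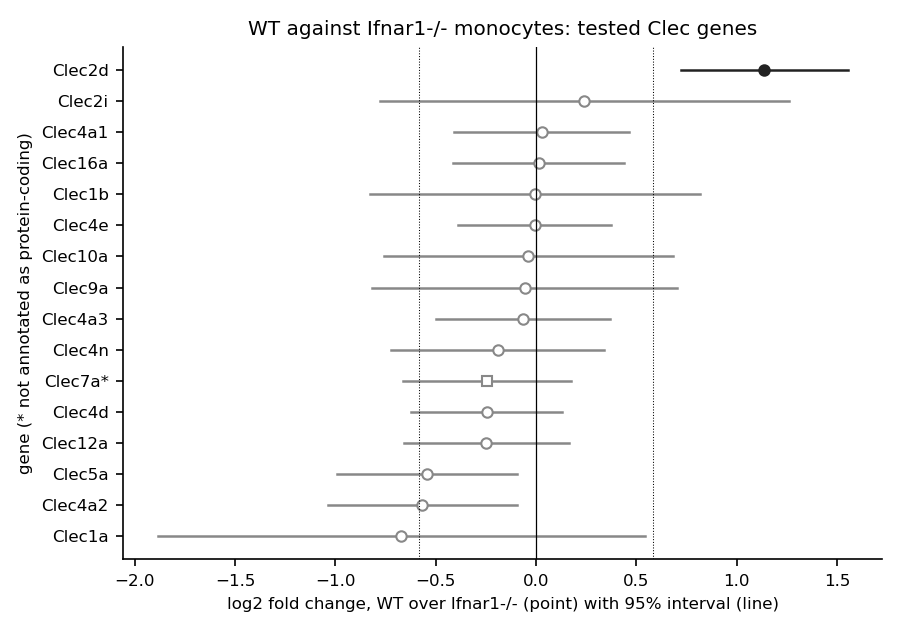
Log2 fold change (WT over Ifnar1-/-) with its 95% interval for the 15 tested members and Clec7a (square). The filled point is the called member, Clec2d at 1.14; open points were not called, and dotted lines mark a 1.5-fold change in either direction.

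The activating, ITAM-coupled receptors made up the most abundant role group. Of its 8 members 6 were tested and none was called; all 6 log2 fold changes were below 0, with a median of -0.12. Clec5a, which signals through the adaptor DAP12, showed the largest estimate. Clec5a had 232, 299 and 213 CPM in WT and 362, 444 and 278 CPM in Ifnar1-/- libraries, so the highest WT library overlapped the lowest Ifnar1-/- library. The estimate on the log2 scale was -0.54 (SE 0.20, 95% interval -0.99 to -0.10), and with an adjusted p of 0.194 it did not pass the test. Neutrophil markers, a cell type known to carry several of these receptors, summed to 460, 843 and 2282 CPM in WT and 1017, 918 and 2521 CPM in Ifnar1-/- libraries, and overlapped between groups; their part in these levels was not tested.

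Clec4e, the receptor for mycobacterial cord factor, was nearly equal between groups. Clec4e had 388, 385 and 393 CPM in WT and 475, 313 and 384 CPM in Ifnar1-/- libraries. The WT values fell inside the Ifnar1-/- range, and the log2 fold change was -0.01 with a 95% interval of -0.39 to 0.37, which leaves out a change of 1.5-fold in either direction. Clec4d, which forms a complex with Mincle, had 89.8, 98.5 and 103 CPM in WT and 136, 89.7 and 120 CPM in Ifnar1-/- libraries (log2 fold change -0.25, adjusted p 0.486). Clec4n, the receptor for fungal mannans, had 141, 74.6 and 89.9 CPM in WT and 143, 93.2 and 112 CPM in Ifnar1-/- libraries (log2 fold change -0.19, adjusted p 0.723). In both genes the groups overlapped. The Clec7a libraries also overlapped, with 1238, 1308 and 1069 CPM in WT and 1724, 1401 and 1159 CPM in Ifnar1-/- (log2 fold change -0.24, adjusted p 0.539).

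The 2 tested members of this group at low level were Clec9a (DNGR-1, a receptor for actin exposed by dead cells that marks cross-presenting dendritic cells) and Clec1b (CLEC-2, the platelet receptor for podoplanin). Clec9a had between 14 and 29 counts per library and a log2 fold change of -0.06, with a 95% interval of -0.82 to 0.70. Clec1b had between 11 and 35 counts and a log2 fold change of -0.01, with a 95% interval of -0.83 to 0.82. Both intervals include changes above 1.5-fold, so a difference of that size was neither shown nor left out. Clec1b and Clec9a overlap on the same strand and share 2.15% and 3.23% of their 75-base stretches, so part of their reads may have been assigned to either. Dendritic cell markers summed to 89.6 to 146 CPM in WT and 70.4 to 110 CPM in Ifnar1-/- libraries. Most of each sum was Itgax, with 125, 62.5 and 70.6 CPM in WT and 82.7, 97.1 and 57.2 CPM in Ifnar1-/- libraries. Of the 8 markers, Xcr1 and Itgae lay higher in every WT library (11.1% of all tested genes did) and none lay lower. Xcr1 and Itgae had 13 counts or fewer and were not tested.

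Of the untested activating members, Clec4b1 had 5 counts in Ifnar1-/- library 1 and none in the other 5 libraries, and Clec4b2 had 5 counts in Ifnar1-/- library 3 and 2 or fewer elsewhere. No fold is given for either.

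The ITIM-bearing receptors comprised 4 members, of which Clec4a2 and Clec12a were tested and neither was called. Clec4a2, the mouse DCIR gene, had 19.4, 33.5 and 29.1 CPM in WT and 38.8, 34.3 and 47.6 CPM in Ifnar1-/- libraries. The groups did not overlap, but WT library 2 and Ifnar1-/- library 2 lay within 1 CPM of each other. The estimate was -0.57 on the log2 scale (SE 0.21, 95% interval -1.04 to -0.10) and did not pass the test (adjusted p 0.200). Non-overlap was seen in 23.4% of all tested genes, 12.2% with WT lower and 11.1% with WT higher; among the members it was seen in 1 gene each, Clec4a2 and Clec2d. Clec4a2 shares 3.24% of its 75-base stretches with Clec4a4 and Clec4b1, both of which had almost no counts. Clec12a, a receptor for uric acid crystals, had 100, 143 and 135 CPM in WT and 121, 155 and 174 CPM in Ifnar1-/- libraries. These overlapped, and the log2 fold change was -0.25 (adjusted p 0.524). The other ITIM-bearing members, Clec12b and Clec4a4, were at the floor.

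Clec4a1 and Clec4a3, relatives of DCIR in the same Clec4 cluster, were nearly equal between groups. Their log2 fold changes were 0.03 (adjusted p 0.963) and -0.06 (adjusted p 0.903). The 95% intervals, -0.41 to 0.46 and -0.50 to 0.37, leave out a 1.5-fold change in either direction.

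**Figure D4:**
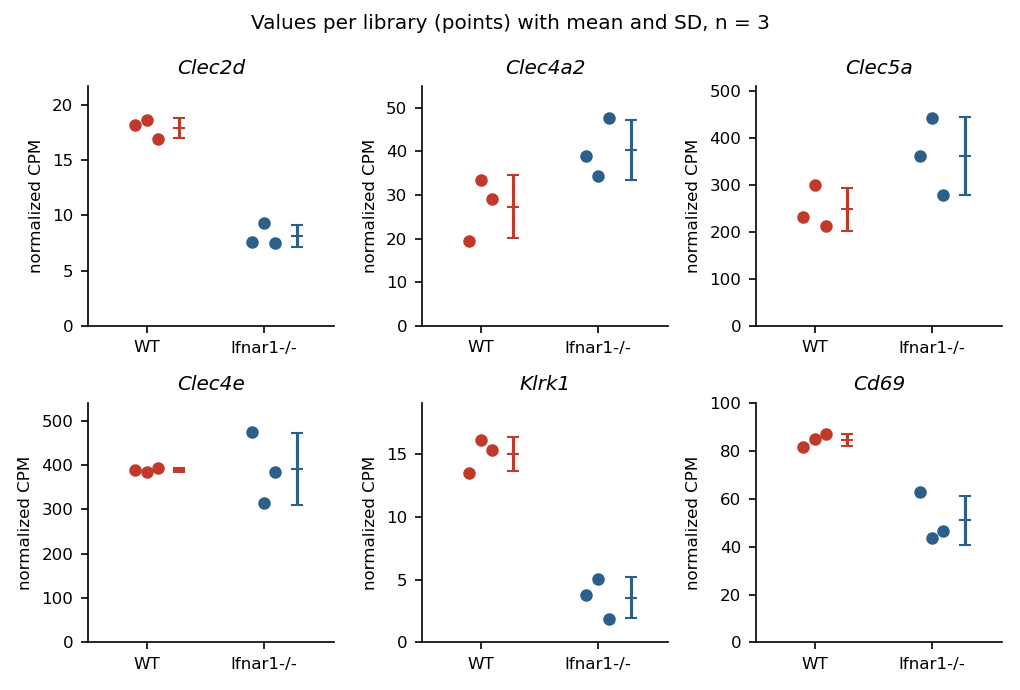
Normalized CPM per library (points) with mean and SD (n = 3) for 4 members and for Klrk1 and Cd69; each axis starts at 0. WT and Ifnar1-/- points were separate for Clec2d, Klrk1 and Cd69, adjoined for Clec4a2, and overlapped for Clec5a and Clec4e.

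Beyond Clec2d, the Clec2 group, read here for its NK receptor ligands, held Clec2i, Clec2g, Clec2e, Clec2h and Clec2l. Of these, Clec2l starts at 38663069 on chromosome 6, outside the NK gene complex, and a ligand role for it is not shown here. Clec2i, the gene of Clr-g, had 1.99, 2.54 and 3.15 CPM in WT and 3.50, 1.35 and 1.47 CPM in Ifnar1-/- libraries, which overlapped. The estimate was 0.24 on the log2 scale (SE 0.46, adjusted p 0.830), with a 95% interval of -0.78 to 1.26. Clec2i thus neither showed nor left out a difference of the size of Clec2d. It overlaps BC035044 on the opposite strand, and strand use in the counting is not given in the sources used here. Clec2g was detected with 3 to 11 counts per library and was not tested. Clec2e and Clec2l did not exceed 2 counts and Clec2h had none.

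Among the remaining roles, Clec10a (MGL1, an endocytic receptor for galactose-type sugars) had 17 to 34 counts per library and a log2 fold change of -0.04 (adjusted p 0.969). It shares 4.44% of its 75-base stretches with Mgl2. Clec1a, expressed by endothelial and some myeloid cells, had 0.567, 1.27 and 2.16 CPM in WT and 2.59, 1.18 and 2.38 CPM in Ifnar1-/- libraries (log2 fold change -0.67, SE 0.55, adjusted p 0.565), the widest interval of the tested members at -1.89 to 0.54. Clec11a, the gene of a secreted growth factor of bone, had 2 to 10 counts and was not tested.

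For Clec16a, which encodes an intracellular protein of autophagy, the value depended on the unit. On CPM it was even, with a log2 fold change of 0.01 and a 95% interval of -0.41 to 0.44. On the deposited TPM, Clec16a had 6.72, 8.45 and 8.21 in WT and 10.4, 10.5 and 9.25 in Ifnar1-/- libraries, so that every WT library was the lower. The deposited mean effective length of Clec16a, which weights its transcripts by their estimated abundance, was 2443, 2035 and 1944 bases in WT and 1492, 1775 and 1812 bases in Ifnar1-/- libraries, without overlap. For Clec2d the longest length was only 1.03 times the shortest, and its TPM and CPM both separated the groups. Clec16a was not called on TPM either (adjusted p 0.457 to 0.876 over the 5 TPM settings). Clec1b and Clec1a, both at low counts, also depended on the unit. Clec1b went from -0.01 on CPM to -0.77 on log2 TPM (pseudocount 0.5) and Clec1a from -0.67 to 0.10, and neither was called.

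Downstream of the activating receptors, a list of 33 signalling genes was read in the same fit. All 33 were tested and none was called in either direction, by edgeR, DESeq2 or limma-voom. Of these, 7 of 33 had an unadjusted p under 0.05, all higher in WT. Among all 11254 tested genes 17.8% did in either direction, 1090 genes higher and 916 lower in WT. The list's median log2 fold change was 0.24 beside -0.01 over all tested genes, with 25 genes above and 8 below 0. Syk, the kinase that binds phosphorylated ITAMs, was at 0.46 on the log2 scale (SE 0.18, adjusted p 0.228) and Card9 at 0.11 (adjusted p 0.755). Bcl10 and Malt1, the partners of Card9, were at -0.08 (adjusted p 0.854) and -0.11 (adjusted p 0.748). The adaptor genes differed in sign. Fcer1g, the FcRγ chain used by Mincle and Dectin-2, had a log2 fold change of 0.34 (adjusted p 0.348), and Tyrobp, the DAP12 chain used by MDL-1, of -0.20 (adjusted p 0.474). Of the phosphatases on the inhibitory side, Ptpn6 (SHP-1) had a log2 fold change of 0.18 (adjusted p 0.609) and Inpp5d (SHIP-1) of 0.41 (adjusted p 0.291).

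C-type lectin genes under other symbols, a list of 47 genes, had 13 tested members. Of these, 2 were called higher in WT and none lower, beside 1.67% and 0.462% of all tested genes. Mrc1, the mannose receptor gene, was lower in every WT library (log2 fold change -0.79) and missed the threshold (adjusted p 0.0610); it is named here after its value was seen, since DESeq2 and some other settings called it lower in WT. Klrk1, which encodes the activating NK and T cell receptor NKG2D, had 13.5, 16.1 and 15.3 CPM in WT and 3.81, 5.07 and 1.83 CPM in Ifnar1-/- libraries, without overlap. Klrk1 was 4.13-fold higher in WT (2.05 on the log2 scale, SE 0.31), with an adjusted p of 0.00570. Cd69, an early activation antigen of leukocytes, had 81.8, 85.0 and 87.1 CPM in WT and 62.9, 43.6 and 46.7 CPM in Ifnar1-/- libraries, without overlap. Its log2 fold change of 0.73 (adjusted p 0.0493) sat at the threshold. The Cd69 call was lost without WT replicate 1 (adjusted p 0.0725), 2 (0.0770) or 3 (0.138) and without Ifnar1-/- replicate 2 (0.122) or 3 (0.190). The sum of the T and NK markers given beside Clec2d, higher in every WT library, stands beside these genes too. The part of those markers was not tested. The list's median was 0.01.

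**Figure D5:**
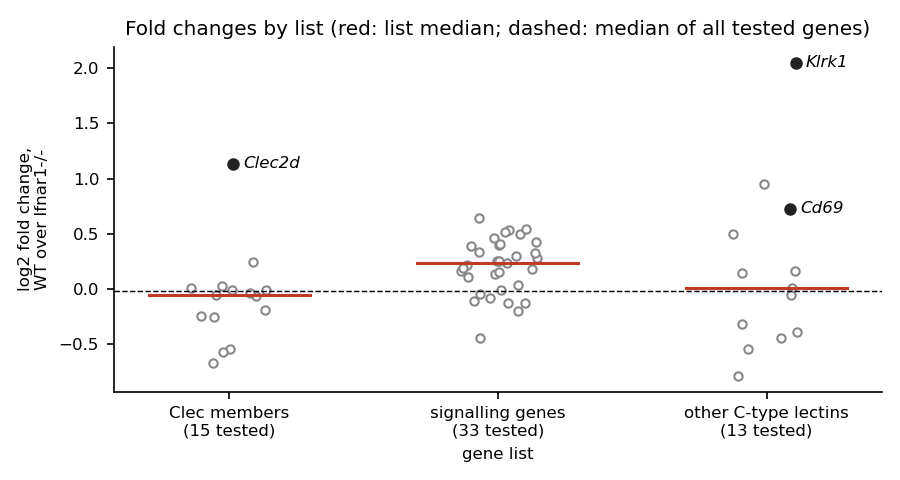
Log2 fold change (WT over Ifnar1-/-) of each tested gene in 3 lists, the Clec members (15 tested), the signalling genes (33 tested) and other C-type lectins (13 tested). Filled points were called, red bars are list medians (-0.06, 0.24 and 0.01) and the dashed line is the median of all tested genes (-0.01).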

How the data were processed

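Sorted CNS monocytes were profiled by stranded total RNA sequencing (75-base paired reads). Per the labels and the submitters' processing notes, the authors aligned reads to GRCm38 with STAR 2.6.0c and quantified genes with RSEM 1.2.31. The deposited values are expected counts (estimated, not normalized), TPM and other values such as effective length per gene. Expected counts were rounded, genes filtered with filterByExpr (minimum count 10, leaving 11254), and scaled by TMM in edgeR 4.0.16 (R 4.3.3). The quasi-likelihood test compared 3 WT with 3 Ifnar1-/- libraries, with Benjamini-Hochberg adjustment over all tested genes; a call required an adjusted p not above 0.05 and a 1.5-fold difference. SE is the log2 fold change divided by the root of F. The script was tested on simulated data. Alternatives were DESeq2 1.42.0, limma 3.58.1 (voom, and log2 TPM with pseudocounts 0.1, 0.5 and 1), other filters and scalings, a replicate block and leaving out each library. Exact permutation tests on log2 CPM used a pseudocount of 0.5. Members and gene lists were chosen with earlier results of these data known; every member is named, with the called genes of the lists and preset core signalling genes. The kit is named differently in the labels and the methods, and strand use in counting is not given in the sources used here.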

Additional observations from a re-analysis of the deposited data

How the results depend on the processing

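Limits: 3 libraries per group, low counts for members under 3 TPM, and T and NK marker levels that moved with genotype bound what could be seen. Clec2d kept its direction in every setting. Over all genes, the 240 calls (78.3% higher in WT) became 872 with no filter on low counts, 469 with DESeq2, 368 with GC and length offsets with replicate block, and 119 to 245 when 1 library was left out (119 without Ifnar1-/- replicate 1, 120 without its replicate 3, 148 without WT replicate 3). Deposited TPM gave 125, 124 and 128 calls at pseudocounts 0.5, 0.1 and 1 (88.8%, 89.5% and 87.5% higher in WT), 85 with no filter, and 157 after rescaling over nuclear protein-coding genes (88.5%), the last and the offsets being settings chosen after seeing the data. Clec members called were 1 in most settings, 0 in the 4 settings on TPM as deposited, 1 on rescaled TPM and 0 to 1 with 1 library left out. Signalling genes called were 0 except for 1 without a filter (Nfatc2, adjusted p 0.0370, named after its value was seen). Other lectins called were 1, 0, 1, 0 and 1 on TPM at pseudocounts 0.5, 0.1, 1, no filter and rescaled, 1 to 2 with 1 library left out, and 3 with DESeq2 (Mrc1 added, lower in WT, adjusted p 0.0223; also called with no filter, 0.000724, and without WT replicate 1, 0.0154). The causes were not tested. No scaling moved the median of all genes by more than 0.1.

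Whether equal replicate numbers share a mouse is not given in the sources used here. Correlations of deviations from the group means were 0.0906, 0.0278 and 0.275 for equal numbers and -0.196 to 0.0920 for unequal ones, and not every library correlated best with its own number, so the block stayed an alternative. With the replicate block 220 genes were called and Clec2d remained called (adjusted p 0.0223), while Cd69 was not called (adjusted p 0.0673) and Mrc1 was, lower in WT (adjusted p 0.0413).

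Signs near 0 turned for members with small changes, none of them called: Clec4e to 0.00782 (RLE), 0.00777 (DESeq2), 0.0145 (voom), 0.00693 (no mitochondrial or ribosomal RNA), 0.0133 (block), 0.10 and 0.11 (offsets, without and with block); Clec1b to 0.00741 (RLE), 0.00583 (DESeq2), 0.00592 (no mitochondrial or ribosomal RNA), 0.16 and 0.11 (offsets); Clec1a to 0.10, 0.00964, 0.0888, 0.10 and 0.0240 on TPM; Clec16a to -0.00509 (block), -0.35, -0.37, -0.33, -0.35 and -0.33 on TPM, -0.28 and -0.29 (offsets); Clec10a to 0.00708 (voom). Offsets without and with block also gave 0.17 and 0.16 for Clec4a3, 0.00819 and 0.0327 for Clec9a, -0.0422 and -0.0529 for Card9, 0.0808 and 0.0787 for Malt1, and 0.0486 and 0.0485 for Tyrobp; Ptpn6 was -0.0317, -0.0318, -0.0317 and -0.0317 on TPM and -0.00288 rescaled. With 1 library left out, log2 fold changes spanned -0.24 to 0.16 (Clec10a), -0.49 to 0.00673 (Clec4n), -0.13 to 0.18 (Clec4e), -0.38 to 0.30 (Clec1b), -0.17 to 0.12 (Clec4a3), -0.25 to 0.16 (Clec9a), -0.13 to 0.17 (Clec4a1), -0.18 to 0.15 (Clec16a), -0.22 to 0.0442 (Bcl10) and -0.15 to 0.0297 (Malt1).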

Other observations

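Clec2d, Cd69 and Klrk1 lie close together in the NK gene complex on chromosome 6. Within 1 Mb of Clec2d 22 genes were tested, and these 3 were the ones called, all higher in WT. Clec2d itself set the window, and of the other 21 genes 2 were called. Over all tested genes 2.13% were called, 1.67% higher in WT. The window was chosen after the values were seen. The other lectin genes between and around them were not called: Clec12a, between Cd69 and Klrk1, had a log2 fold change of -0.25 and Olr1, a scavenger receptor for oxidized lipoprotein, -0.31 (adjusted p 0.463). Klra17, on the far side of Klrk1, had 0.95 (adjusted p 0.386).

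The deposited effective length of Clec12a was 1636, 1600 and 1702 bases in WT and 2035, 1871 and 1858 bases in Ifnar1-/- libraries, while its CPM overlapped. Of the 15 tested members, 4 had shorter lengths in every WT library (Clec5a, Clec12a, Clec4a1 and Clec2d), beside 29.9% of all tested genes. Longer ones in every WT library were seen in 2 (Clec16a and Clec1b), beside 3.40%. Clec4a1 had 1363, 1359 and 1353 bases in WT and 1384, 1373 and 1385 bases in Ifnar1-/- libraries. Clec2d had 1018, 1014 and 1008 bases in WT and 1039, 1028 and 1040 bases in Ifnar1-/- libraries. Both shifted by the same number of bases from library to library, so their separation cannot be read as a trait of either gene. Its cause was not tested. The comparison was chosen after the values were seen.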
